A study of Danio rerio with 12 samples.

Results

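The 150 zebrafish genes described here were chosen because their RNA was lower after JQ1 than after DMSO at day 3, while the treatments lay close together at day 1. They were taken from 25607 zebrafish genes counted in sorted tumor cells. A gene's level is given as its count per 1e6 zebrafish gene counts (CPM), and its rule value is log2((mean JQ1 CPM + 1)/(mean DMSO CPM + 1)) for each day. Of all genes, 6271 had a mean of at least 20 CPM in DMSO at day 3, and in 1974 of these (31.5%) the highest JQ1 library was below the lowest DMSO library of day 3. A rule value within 0.5 of 0 at day 1 was left in 729, while 1235 of the separated genes were at or under −0.5 at day 1 and 10 were at or over 0.5. After 38 genes were left out for the start of their name (mcm, cdc, cdk, ccn, kif, cenp, rpl, rps, snrp, nop or utp), 691 remained, and the 150 with the lowest rule value at day 3 were kept. All values that follow for these genes on either day come from libraries the rule used, so they describe the genes and test nothing. Gene symbols are printed as the naming table gives them, some of them in capitals.

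The cells came from fish in which human *IRF4* and the fluorescent protein mCherry are expressed from the zebrafish *lck* promoter, which is active in T cells. All groups carried both transgenes and had developed lymphoma, and tumor cells were sorted by mCherry. Fish were kept in individual tanks with JQ1 at 4 μM or with the same amount of DMSO. There were 12 libraries in 4 groups of 3, DMSO day 1, JQ1 day 1, DMSO day 3 and JQ1 day 3, and each group is given as 3 independent animals. The study's notes give an age of 10 months for its bulk RNA-seq fish, and the labels state neither their strain nor their *p53* genotype. The paper gives *p53* wild type for the fish it imaged under JQ1 or DMSO. Its transgenic lines were made in the Singapore wild-type strain.

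JQ1 blocks the bromodomains with which BET proteins bind acetylated histones, and BET proteins help RNA polymerase II to begin and to elongate transcripts. Genes for DNA replication, chromosome condensation, the spindle and cytokinesis are expressed in waves through the cell cycle, so their level in bulk RNA follows the share of cycling cells. T cells depend on a signaling chain that runs from coreceptors such as CD8 through the kinases Lck and Zap70. In sorted bulk RNA, fewer cells of a type and less RNA per cell cannot be told apart.

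Libraries held 8176139 to 12771912 zebrafish gene counts, so that 3 counts, the limit for a gene without counts, stood for 0.235 to 0.367 CPM. This limit covers counting error only, and the chi-square between replicates, divided by its degrees of freedom, was 38.8 to 131, above sampling noise in each group. T-cell marker genes (*bcl11ba*, *themis*, *lat* and *lck*) were detected in each library, with a summed level of 2689 to 3271 CPM in DMSO at day 3 and of 2001, 627 and 1365 CPM in JQ1 replicates 1, 2 and 3. Human *IRF4* had 3307 to 6291 CPM in DMSO and 3415, 503 and 2316 CPM in JQ1 at day 3, and mCherry had 3476 to 5236 CPM and 2878, 283 and 2073 CPM. JQ1 replicate 2 of day 3 therefore stood apart, with the lowest level of both transgenes. Markers of several other cell types were higher in JQ1 than in DMSO at day 3. Macrophage genes (5 of 6 listed were matched) summed to 43.9 to 267 CPM in DMSO and 604 to 3111 CPM in JQ1, germ-cell genes (8 of 8) to 22.6 to 47.5 and 186 to 1516 CPM, and skin genes (6 of 6) to 26.6 to 118 and 461 to 1167 CPM. No matched gene of these 3 lists was at 0 in each library of a group. Skin and germ-cell genes stood apart at day 1 as well, with 714 to 1889 CPM in JQ1 against 27.5 to 190 CPM in DMSO and with 247 to 543 against 26.8 to 34.3 CPM, while macrophage genes overlapped there. Muscle and liver genes were apart on both days and mostly low, with liver genes at 242 CPM in JQ1 replicate 3 of day 3. Granulocyte genes stood apart at day 1, with 229 to 588 CPM in JQ1 against 14.1 to 88.8 CPM in DMSO. At day 3 B-cell, erythrocyte, granulocyte and endothelial genes overlapped. The part of these other cell types in the values below was not tested.

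**Figure D1:**
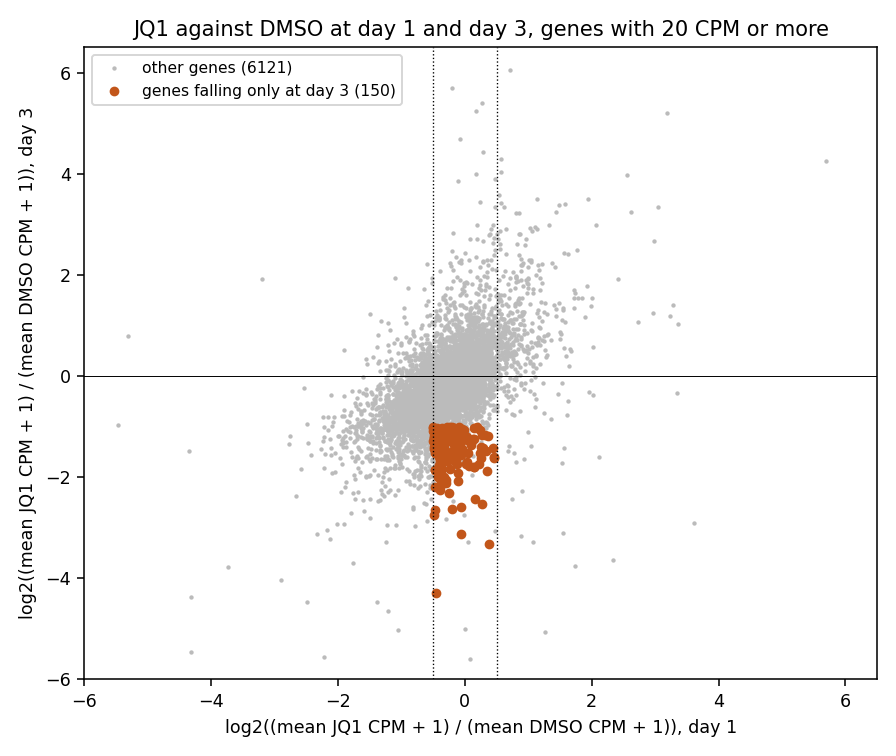
Each point is a gene with a mean of at least 20 CPM in DMSO at day 3, with its rule value at day 1 on the x axis and at day 3 on the y axis (log2 scale). The 150 chosen genes (orange) lie between the dotted lines at −0.5 and 0.5 on the x axis and at or below −1.0 on the y axis, where the rule placed them.

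The rule value at day 3 ranged from −4.29 to −1.0 with a median of −1.37, and that at day 1 from −0.50 to 0.46 with a median of −0.25. Over the 6271 genes with enough counts the medians were −0.21 and −0.28. At day 1, 118 of the 150 genes thus had a value below 0, and 74 lay under −0.25. Of the 6271 genes 4471 were below 0 at day 1, so nothing particular to the 150 is read from this. The members just inside the limit were *si:dkey-42i9.4*, *anln*, *ITPKB*, *MIF* and *MTFP1*, with day 3 values of −1.01 for the first 4 and −1.0 for *MTFP1*. Just outside were *ZBTB41*, *ranbp1*, *EIF3H*, *BIRC5* and *rap1gap2b*, with values of −1.0, −1.0, −1.0, −0.99 and −0.98. The limit therefore separates genes with almost the same value. Of the 38 genes left out for their names, 14 lay under the limit, and several encode mitotic proteins, such as *cdca8* (−1.84), *CDK1* (−1.76), *kif11* (−1.66), *CENPF* (−1.58) and *CCNA2* (−1.10).

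By edgeR's quasi-likelihood test (Benjamini-Hochberg, 16271 genes), 129 of the 150 had an adjusted p under 0.05 and were lower with JQ1 at day 3, where 9.91% of all genes tested were called lower. This count restates the choice of the genes. Their log2 fold changes ranged from −5.01 to −1.22 (median −1.63, all genes 0.05). The number called was 0 without any 1 of the 3 DMSO libraries (146 of 150 at an unadjusted p under 0.05 each time) and 0 with the replicate number as a block (148 unadjusted). In these 4 fits edgeR called no gene of the whole table in either direction, so the loss was not particular to the 150, and 13.6% to 14.3% of all genes (16% with the block) were lower at an unadjusted p under 0.05. DESeq2 called 147, against 14.8% of all genes. Without JQ1 replicates 1, 2 and 3 edgeR called 115, 57 and 103 (7.1%, 2.23% and 7.53% of all genes). At day 1 edgeR called 0 of the 150 (0.0443% of 15813 genes in either direction), with a median of −0.20. None of the 150 had an unadjusted p under 0.05 at day 1, against 10% of all genes lower and 12.3% higher, and DESeq2 called none, against 4.64% lower and 8.09% higher. The rule kept genes near 0 at day 1, so nothing is read from these counts.

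The difference between days did not pass an adjusted p of 0.05 for any gene of the table by edgeR (0.0% of 18116). Each of the 150 had a negative change of the JQ1 effect from day 1 to day 3, with a median of −1.57 (log2) and a range from −4.96 to −0.81, and 120 had an unadjusted p under 0.05, against 3.34% of all genes. Without DMSO replicate 3 of day 1 that count was 77, against 2.5% of all genes. DESeq2 called 7 of the 150 lower, with 0.127% of all genes. That these genes differ only at day 3 is therefore how they were chosen, and a test that corrects for all genes called the change between days in 0 of them by edgeR and in 7 by DESeq2.

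It also holds only on scales relative to the other genes. ERCC spike-in RNA was added by cell number, and with scaling by ERCC counts all 150 genes were lower with JQ1 at day 1 too, with a median log2 fold change of −1.63 (all genes −1.51). On that scale edgeR called 70 of the 150 lower at day 1, against 37.6% of all genes, and 148 at day 3, against 23.5%. The day 3 median was −2.04, with −0.38 for all genes. The change of the JQ1 effect between days had a median of −0.49 (all genes 1.20), 133 of the 150 were negative, and 5 were lower at an unadjusted p under 0.05. Of all genes, 0.232% were lower and 20.6% higher at that threshold. At day 1 the ERCC counts were 183496, 428277 and 527562 in JQ1 and 109830 to 142795 in DMSO, so this scale differed between the JQ1 animals. Applied to ERCC-scaled values, the rule found 0 of the 150 genes, and with TMM-normalized CPM it found 116. Scaled by the transgene counts, 25 of the 150 genes were still lower with JQ1 at day 3 and the others turned higher (median 0.64, all genes 2.48). With this scaling edgeR called 0 of the 150 (1 lower at an unadjusted p under 0.05). Of all genes it called 0.0307% lower and 31.7% higher (0.0615% lower unadjusted). The transgenes themselves had lower means in JQ1 at day 3. Human *IRF4* had a mean of 4613 CPM in DMSO and 2078 CPM in JQ1, with 503 CPM in JQ1 replicate 2. Both are expressed from the *lck* promoter, and *lck* is among the 150, so this scale is not independent of the genes described. The statements below concern levels relative to all zebrafish genes.

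**Figure D2:**
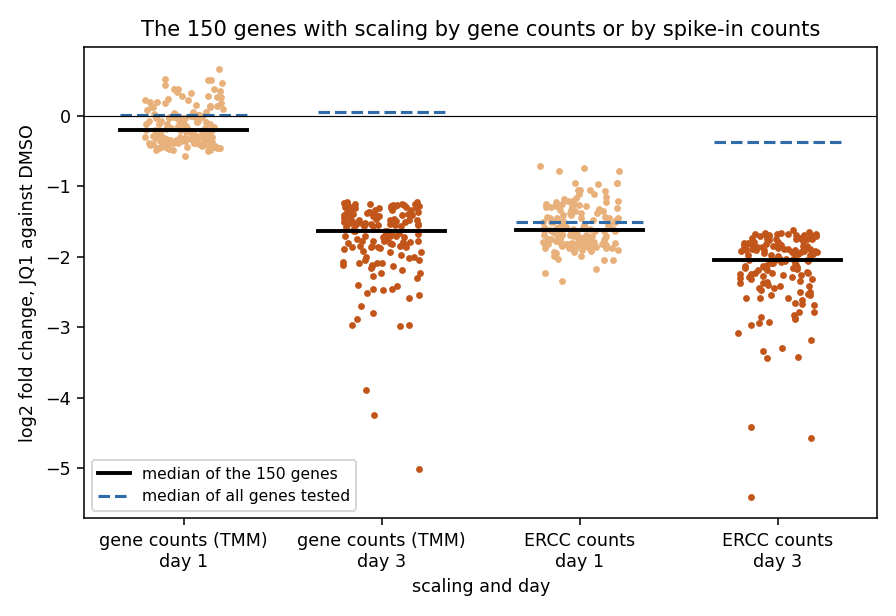
Each point is 1 of the 150 genes, with its edgeR log2 fold change of JQ1 against DMSO on the y axis, and columns give the scaling (TMM on gene counts or ERCC counts) and the day. Black lines are medians of the 150 genes (−0.20, −1.63, −1.63 and −2.04 from left to right) and blue dashed lines are medians of all genes tested (0.00, 0.05, −1.51 and −0.38).

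The day 3 difference went with higher levels in DMSO as well as lower levels in JQ1. The rule took genes with close treatments at day 1 and JQ1 below DMSO at day 3. The DMSO level therefore had to change upward relative to the JQ1 level in each gene. The counts below are shaped by this choice, and the shares of all genes beside them are no test of it. The mean in DMSO was higher at day 3 than at day 1 for 143 of the 150 genes (median log2 ratio of CPM + 1 of 0.67). The mean in JQ1 was lower at day 3 than at day 1 for 142 (median −0.56). Of the 6271 genes with enough counts, 3478 were higher in DMSO (median 0.04) and 2211 lower in JQ1 (median 0.14). In 55 genes both changes exceeded 0.5, in 53 only the DMSO level was higher by more than 0.5, in 31 only the JQ1 level was lower by more than 0.5, and in 11 neither. The DMSO change was the larger in 91 genes. Neither this count nor the split at 0.5 was taken over all genes. Without DMSO replicate 2 of day 3, the number of genes over 0.5 higher in DMSO was 67 in place of 108. All 3 DMSO libraries of day 3 were above all 3 of day 1 in 65 genes (5.74% of genes with enough counts) and above all 9 other libraries in 57 (3.4%). The JQ1 libraries of day 3 were below those of day 1 in 50 genes (5.26%) and below all 9 other libraries in 35 (1.75%). At day 1 the JQ1 libraries were below the DMSO libraries in 5 of the genes (26.5%). By edgeR, 48 of the 150 had an unadjusted p under 0.05 and were higher in DMSO at day 3 than at day 1 (1.98% of all genes), and 72 were lower in JQ1 at day 3 than at day 1 (3.52%). None of the 150 passed the adjusted p of 0.05 in either comparison, whereas DESeq2 called 7 (0.198% of all genes) and 9 (0.452%). The 150 genes together took 1.99% to 3.16% of the counts in DMSO and 1.71% to 2.84% in JQ1 at day 1, and 3.35% to 4.67% and 1.09% to 1.67% at day 3.

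**Figure D3:**
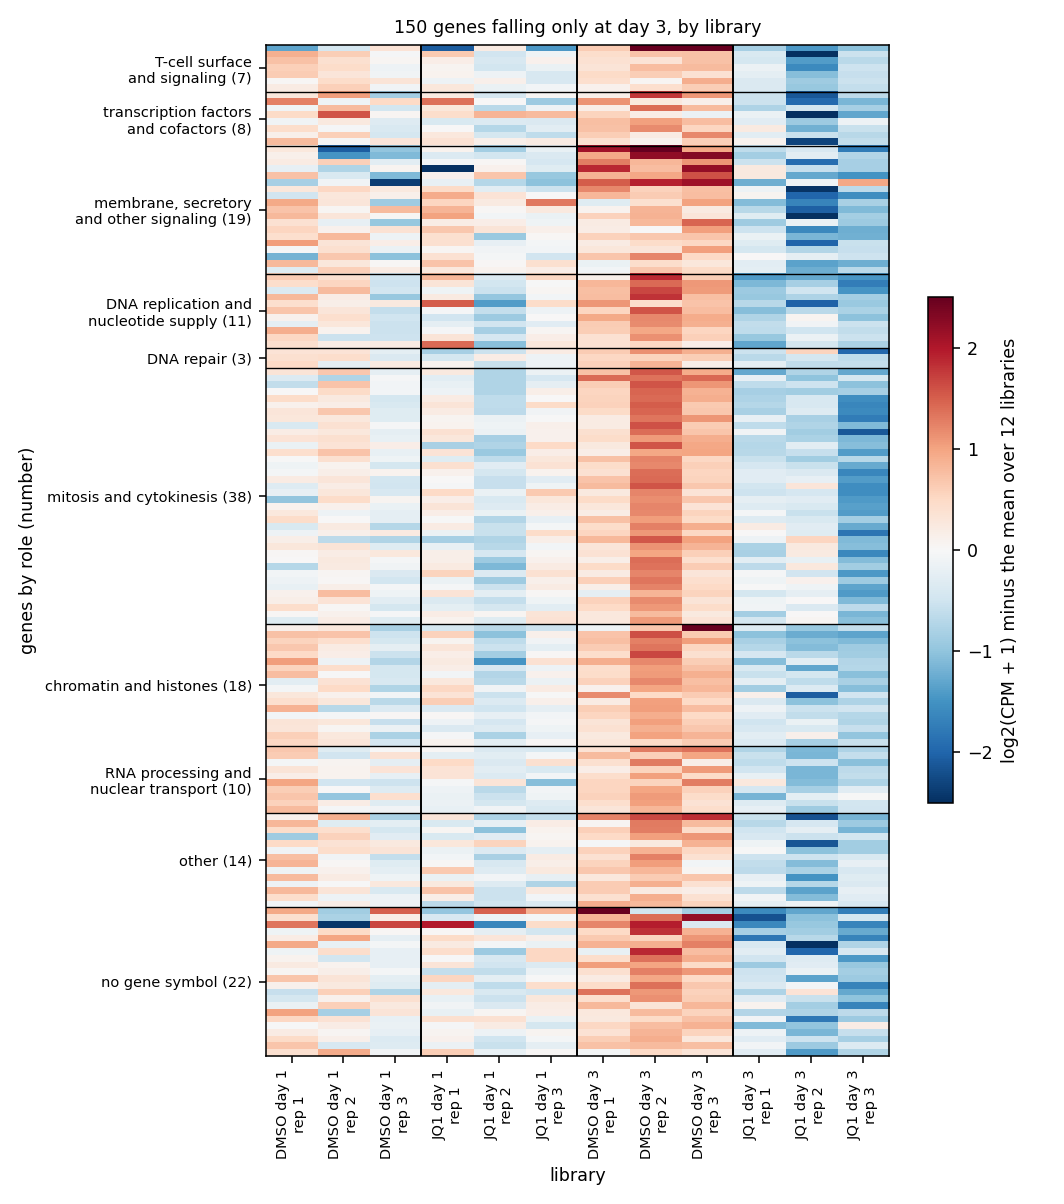
Rows are the 150 genes grouped by role and columns the 12 libraries. Color gives log2(CPM + 1) minus the gene's mean over all libraries, with red above and blue below it. DMSO at day 3 is mostly red, most strongly in replicate 2 for the mitotic genes, and JQ1 at day 3 is mostly blue, most strongly in replicate 3 for the mitotic genes and in replicate 2 for T-cell and transcription factor genes.

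The genes were grouped by role after their values were seen, so the groups carry no test. The largest group, 38 genes, encodes proteins of mitosis and cytokinesis. DNA replication and nucleotide supply had 11 genes, DNA repair 3, chromatin and histones 18, RNA processing and nuclear transport 10, transcription factors and cofactors 8, T-cell surface and signaling 7, and membrane, secretory pathway and other signaling 19. A further 14 had other roles, and 22 had no gene symbol (5) or only a clone name (17).

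Genes of T-cell signaling included the lowest value of all. *cd8a* (ENSDARG00000044797), the alpha chain of the CD8 coreceptor, had 9.4, 78.8 and 95.9 CPM in DMSO at day 3 and 2.79, 1.49 and 2.29 CPM in JQ1. At day 1 it had 1.70, 3.98 and 7.49 CPM in DMSO and 0.594, 6.73 and 1.48 CPM in JQ1, so its level was low in all libraries except 2 DMSO libraries of day 3. By edgeR, JQ1 differed from DMSO at day 3 by −5.01 on the log2 scale (standard error 0.89, adjusted p = 0.0233). *cd8b*, the beta chain, was outside the 150 because its rule value at day 1 was −1.38, and edgeR gave it −5.81 at day 3 (adjusted p = 0.0187).

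*lck* (ENSDARG00000102525), the kinase that starts signaling from the T-cell receptor, had 905, 1098 and 1110 CPM in DMSO and 511, 114 and 461 CPM in JQ1 at day 3. Its DMSO and JQ1 libraries overlapped at day 1, with 655 to 1235 and 481 to 1046 CPM. *lck* did not pass the adjusted p at day 3 (log2 fold change −1.71, adjusted p = 0.0626 from edgeR). *ZAP70*, the kinase that Lck activates, had 580, 794 and 809 CPM in DMSO and 420, 154 and 324 CPM in JQ1. *grap2b*, which encodes an adaptor of the same chain, had 1440, 1402 and 1832 CPM in DMSO and 807, 415 and 686 CPM in JQ1. In all 7 genes of the group JQ1 replicate 2 was the lowest JQ1 library, the replicate with the least transgene RNA. The change in DMSO between days was small for most of them (median log2 ratio 0.18, up to 3.53 for *cd8a*).

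The list of T-cell receptor signaling genes held 35 tested genes outside the 150. Of these, 4 were lower and 2 higher with JQ1 at day 3 by edgeR, with a median log2 fold change of −0.14 (all genes 0.05). Over all genes tested 9.91% were called lower and 15.3% higher, so the share called lower in this part of the list was near that of all genes. *THEMIS*, needed for T-cell development in the thymus, was among those called lower (−1.84, adjusted p = 0.0426 from edgeR). The whole list, with its 5 members that the rule chose for low values, had 8 of 40 genes called lower and 2 higher (median −0.26). Of T-lineage transcription factors outside the 150, 5 of 34 were lower and 4 higher (median 0.19).

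Among the 8 genes for transcription factors and cofactors was *irf4b* (ENSDARG00000055374), one of the fish's own copies of the gene whose human form drives the tumors. It had 78.8, 42.6 and 39.0 CPM in DMSO and 24.3, 8.53 and 15.7 CPM in JQ1 at day 3, and at day 1 87.1, 33.0 and 50.9 CPM in DMSO and 94.6, 35.9 and 18.6 CPM in JQ1. The other copy, printed as *IRF4* (ENSDARG00000006560), had 1.47 to 16.7 CPM in DMSO and 16.1 to 25 CPM in JQ1 at day 3, with no call (log2 fold change 0.82, adjusted p = 0.423 from edgeR). *MXD3*, a partner of MAX that competes with MYC, had 18.2, 44.7 and 28.9 CPM in DMSO and 9.06, 11.5 and 8.65 CPM in JQ1.

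*tcf3b*, which encodes an E protein of lymphocyte development, had 92.5, 112 and 93.6 CPM in DMSO and 44.2, 28.5 and 49.5 CPM in JQ1 at day 3. At day 1 it had 43.2 to 64.0 CPM in DMSO and 41.5 to 42.3 CPM in JQ1, so the treatments did not overlap then either. *JDP2* and *aff3* had 2 of the 3 largest spreads between JQ1 libraries of day 3, with the third in *RAD54L*, a repair gene. *JDP2*, a repressor of AP-1, had 123, 95.6 and 75.6 CPM in DMSO and 74.1, 7.67 and 33.3 CPM in JQ1. The highest JQ1 and the lowest DMSO library of *JDP2* and of *aff3* nearly touched, and neither gene was called (adjusted p = 0.148 for *JDP2* from edgeR).

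Genes of DNA replication and nucleotide supply had the lowest group median of those with more than 10 genes and a known pathway, −1.86 by the rule value. All 11 were called lower by edgeR at day 3, against 9.91% of all genes, which restates how they were chosen. *TK1* (ENSDARG00000102245), thymidine kinase of the salvage pathway, had 67.4, 228 and 94.9 CPM in DMSO and 22.4, 25 and 22.0 CPM in JQ1 at day 3. At day 1 it had 96.0, 81.4 and 43.5 CPM in DMSO and 111, 48.5 and 88.7 CPM in JQ1, which overlapped. For *TK1* edgeR gave −2.69 at day 3 (log2, standard error 0.44, adjusted p = 0.0219).

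*PCNA* (ENSDARG00000054155), the sliding clamp of DNA polymerases, had 869, 1771 and 856 CPM in DMSO and 260, 298 and 279 CPM in JQ1 at day 3, and 262 to 889 and 260 to 587 CPM at day 1. *dhfr*, which regenerates the folate needed for thymidylate, had 48.6, 92.8 and 61.4 CPM and 14.9, 20 and 9.67 CPM at day 3. *DUT*, which keeps uracil out of DNA, had 109, 166 and 130 CPM in DMSO and 27.4, 34.1 and 17.8 CPM in JQ1. In *PCNA*, *TK1* and *dhfr* DMSO replicate 2 was the highest library, whereas the JQ1 libraries of *PCNA* and *TK1* lay close together. *RFC4* and *RFC5*, subunits of the clamp loader, and *POLE*, the catalytic subunit of the leading-strand polymerase, had smaller differences, with rule values of −1.30, −1.52 and −1.30.

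Ribonucleotide reductase makes deoxyribonucleotides from a large and a small subunit. *RRM1*, the large subunit, had 237, 489 and 278 CPM in DMSO and 78.0, 102 and 94.3 CPM in JQ1 at day 3. *RRM2*, the small subunit, has 2 identifiers of the same name in the table. The one among the 150 (ENSDARG00000078069) had 213, 135 and 163 CPM in DMSO and 60.5, 23.7 and 51.7 CPM in JQ1 at day 3. The other *RRM2* (ENSDARG00000020711) had 0.322, 379 and 294 CPM in DMSO and 0.254, 27.2 and 0.170 CPM in JQ1, and at day 1 137, 121 and 0.158 CPM in DMSO and 0.848, 42.6 and 0.00 CPM in JQ1. It was thus below 1 CPM in 6 of the 12 libraries and at 27.2 CPM or more in the other 6. Summed, the *RRM2* copies had 213, 514 and 457 CPM in DMSO and 60.7, 51.0 and 51.8 CPM in JQ1 at day 3, with no overlap, and 118 to 269 and 79.5 to 285 CPM at day 1. The authors counted reads with 1 place only, and whether that affected the split between the copies was not tested.

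Of the replication genes on a list that leaves out MCM and CDC genes, 35 tested genes were outside the 150. By edgeR, 29 of these were lower and 0 higher with JQ1 at day 3 (median log2 fold change −1.79), against 9.91% and 15.3% of all genes. Among them were *FEN1*, which processes Okazaki fragments (−2.35, adjusted p = 0.0184), *TYMS*, thymidylate synthase (−2.55, adjusted p = 0.0215), and *LIG1*, the ligase that joins the fragments (−1.84, adjusted p = 0.0215). At day 1 their median was −1.07 (all genes 0.00). By edgeR, 0 of all 15813 genes were called lower at day 1, so the 0 called in this list is not particular to it. Of the list's genes with enough counts and no overlap at day 3, 26 had a rule value of −0.5 or less at day 1. Most of the replication list outside the 150 was thus left out for its lower level at day 1, and the 9 members on the list are the part of it that lay within 0.5 of 0 there.

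**Figure D4:**
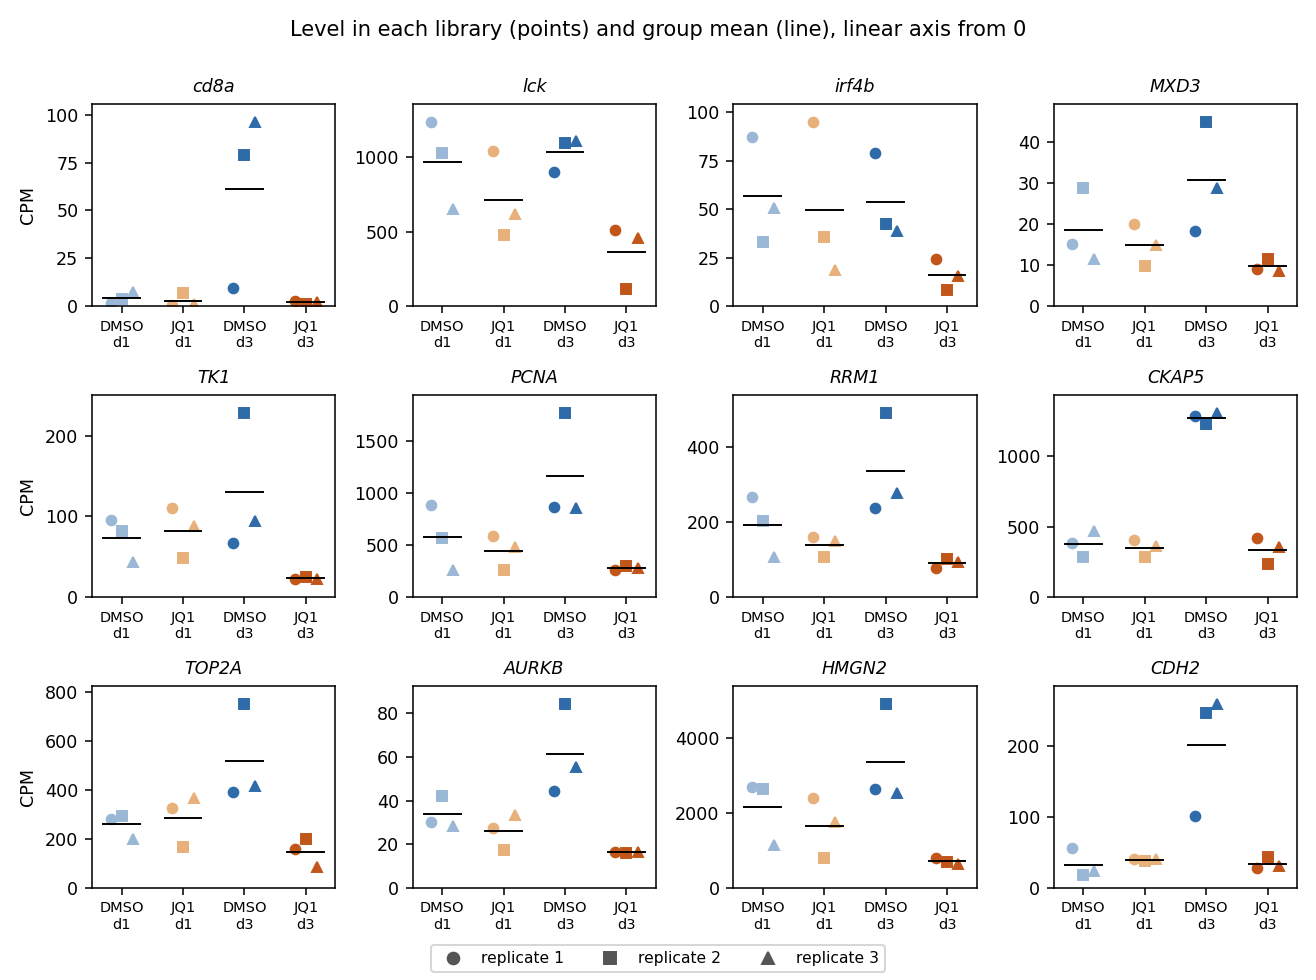
Level in CPM (linear y axis from 0) of 12 of the genes in each library. Circles, squares and triangles are replicates 1, 2 and 3 (numbers not taken to pair animals) and lines are group means. JQ1 at day 3 lies below DMSO at day 3 in each panel, and *cd8a*, *CKAP5* and *CDH2* differ from the rest in that JQ1 at day 3 is near the level of both groups at day 1.

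The 38 genes of mitosis and cytokinesis had rule values from −2.20 to −1.01 at day 3 (median −1.39) and a median of −0.12 at day 1, where 13 were above 0. The edgeR test called 35 of them lower at day 3, against 9.91% of all genes, and this too restates the choice. *CKS1B*, which binds cyclin-dependent kinases, had the lowest rule value of the group, with 34.6, 62.2 and 40.2 CPM in DMSO and 7.87, 11.7 and 7.89 CPM in JQ1. *AURKB* (ENSDARG00000037640), the kinase of the chromosomal passenger complex, had 44.3, 84.3 and 55.5 CPM in DMSO and 16.1 to 16.5 CPM in the 3 JQ1 libraries, the smallest spread between JQ1 libraries of all 150 genes. At day 1 *AURKB* overlapped between treatments (28.5 to 42.1 CPM in DMSO and 17 to 33.3 CPM in JQ1).

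*CKAP5*, a microtubule polymerase of the spindle, had a different course. Its DMSO level was 1290, 1232 and 1308 CPM at day 3 against 382, 285 and 473 CPM at day 1, and its JQ1 level was 418, 238 and 357 CPM at day 3 against 404, 286 and 361 CPM at day 1. The 3 DMSO libraries of day 3 thus stood alone, and the other 9 lay between 238 and 473 CPM. *TOP2A*, the topoisomerase that untangles sister chromatids, had 391, 750 and 415 CPM in DMSO and 159, 198 and 84.7 CPM in JQ1 at day 3, and 201 to 294 and 168 to 365 CPM at day 1.

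Condensin, which compacts mitotic chromosomes, was represented by *SMC4*, *NCAPD2*, *NCAPG* and *NCAPH*, with rule values of −1.68, −1.60, −1.22 and −1.86. Its partner gene *SMC2* was outside the 150 with −0.62 at day 1, and edgeR gave it −2.78 at day 3 (log2, adjusted p = 0.0184). The spindle checkpoint had *BUB3*, *MAD2L1*, *TTK*, *bub1ba* and *bub1bb*, with rule values from −1.48 for *MAD2L1* to −1.06 for *TTK*. Kinetochore and centromere genes were *spc24*, *MIS12*, *ska3*, *SPDL1* and *ERCC6L*, and *spc24* had 18.2, 34.3 and 23.8 CPM in DMSO and 6.69, 8.93 and 3.48 CPM in JQ1. Spindle genes were *TPX2*, *NUSAP1*, *ASPM*, *numa1* and *ckap2l*, and those of the cleavage furrow included *ECT2*, *anln*, *CEP55* and *DIAPH3*. *UBE2C*, whose product passes ubiquitin on to targets of the anaphase-promoting complex, and *fbxo5*, which encodes an inhibitor of that complex, were both members, with rule values of −1.19 and −1.76. Of the mitosis list, 27 tested genes were outside the 150. Of these, 18 were called lower and 0 higher at day 3 (median −1.43), against 9.91% and 15.3% of all genes. *mki67*, the proliferation marker Ki-67, was among the 18 (−2.51, adjusted p = 0.0184 from edgeR). At day 1 the median of the 27 was −0.50, with 0 called, where edgeR called 0 of all genes lower. Of the list's genes with enough counts and no overlap at day 3, 13 had a rule value of −0.5 or less at day 1.

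Which JQ1 library was lowest was not used by the rule and differed between roles. JQ1 replicate 3 was the lowest of the JQ1 libraries of day 3 in 34 of 38 mitotic genes, and replicate 2 in 7 of 7 T-cell genes, 6 of 8 transcription factor genes and 8 of 10 genes of RNA processing and transport. Over the genes with enough counts, replicates 1, 2 and 3 were lowest in 29.6%, 38.7% and 31.6%. Against the DMSO mean of day 3, the median of the mitotic genes was −1.22, −1.15 and −2.10 in JQ1 replicates 1, 2 and 3 (log2 ratio of CPM + 1), and that of the T-cell genes −0.86, −1.91 and −1.17. Replication genes had closer medians of −1.78, −1.71 and −1.82, and replicates 1, 2 and 3 were lowest in 6, 1 and 4 of the 11. In DMSO at day 3, replicate 2 was highest in 36 of 38 mitotic, 10 of 11 replication and 15 of 18 chromatin genes (50.4% of genes with enough counts), while replicate 3 was highest in 6 of 7 T-cell genes (25.3%).

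The order was also counted in genes the rule did not choose. Of 21 genes on the mitosis list that had enough counts and were not among the 150, JQ1 replicate 3 was lowest in 17 and DMSO replicate 2 highest in 21, with medians of −1.15, −1.19 and −1.90 in JQ1 replicates 1, 2 and 3. Of 23 such genes on the T-cell receptor signaling list, JQ1 replicate 2 was lowest in 15 (medians −0.20, −0.96 and −0.18), but DMSO replicates 1, 2 and 3 were highest in 12, 9 and 2, unlike the T-cell members. Of 29 such genes on the replication list, JQ1 replicate 2 was lowest in 1 and DMSO replicate 2 highest in 27, with medians of −1.70, −1.24 and −1.65 in JQ1. Genes within a library are not independent, so these counts describe 3 animals.

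**Figure D5:**
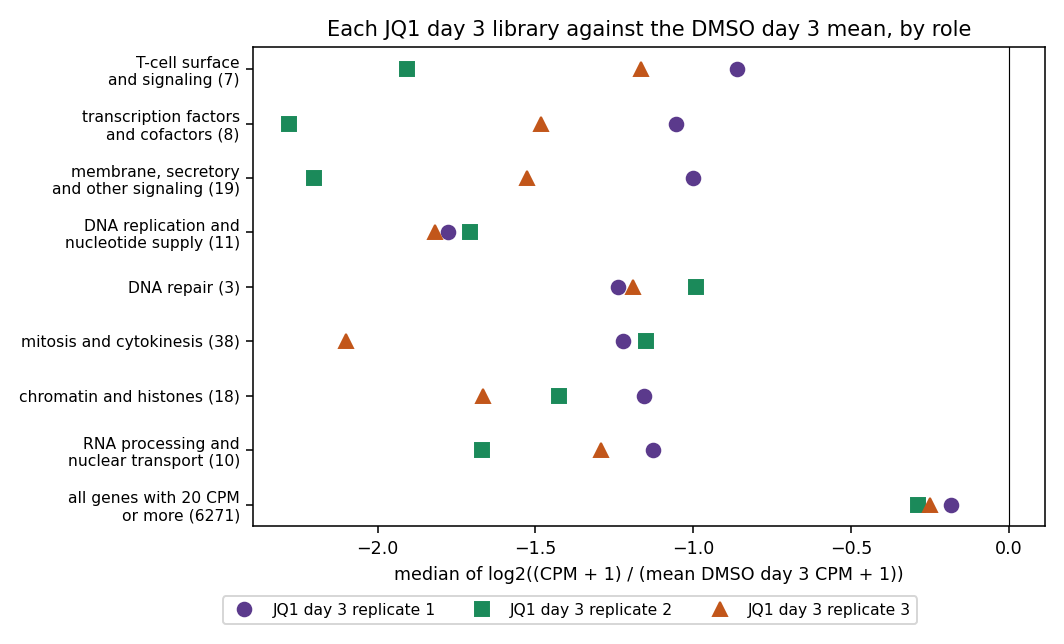
For each role group (number of genes in brackets) and for all 6271 genes with enough counts, the x axis gives the median log2 ratio of each JQ1 library of day 3 to the DMSO mean of day 3. Replicate 3 (triangle) is lowest for mitotic genes at −2.10 and replicate 2 (square) for T-cell genes at −1.91, while the 3 libraries lie within −1.82 to −1.71 for replication genes.

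The chromatin group held high mobility group proteins, which bend or loosen DNA and nucleosomes. *HMGN2* (ENSDARG00000099572) had 2648, 4907 and 2538 CPM in DMSO and 795, 680 and 642 CPM in JQ1 at day 3, which edgeR gave as −2.46 on the log2 scale (standard error 0.34, adjusted p = 0.0215), and 1133 to 2693 and 792 to 2407 CPM at day 1. *hmga1a* had 2670, 4318 and 2491 CPM in DMSO and 1038, 804 and 919 CPM in JQ1, and *hmgb2b* had 386, 549 and 469 CPM and 130, 111 and 106 CPM. The groups did not overlap at day 3 and overlapped at day 1 in all of these.

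Both copies of *h2az2*, a histone variant at gene starts, were members (*h2az2b* and *H2AZ2*, rule values −1.62 and −1.41), as were *h3f3a*, *h2ax* and *slbp*, whose product binds the 3′ end of histone mRNA. *h2ax*, the variant phosphorylated at DNA breaks, had 1196, 748 and 817 CPM in DMSO and 573, 125 and 376 CPM in JQ1 and was not called (adjusted p = 0.0795 from edgeR). *chaf1a*, a chromatin assembly factor, *dek* and *CTCF*, which shapes chromatin loops, had values of −1.03, −1.13 and −1.11. *mier2*, a histone deacetylase partner, owed its rank to 1 library, with 36.3, 63.6 and 403 CPM in DMSO and 31.3, 20.2 and 25.7 CPM in JQ1. Its rule value of −2.66 was −0.93 without DMSO replicate 3, short of the limit. On the chromatin list, 38 tested genes were outside the 150. Of these, 15 were lower and 1 higher at day 3 (median −0.79), against 9.91% and 15.3% of all genes. The maintenance DNA methyltransferase gene *DNMT1* was at −2.19 (adjusted p = 0.0184 from edgeR). At day 1 the median of the 38 was −0.51, with 0 called, where edgeR called 0 of all genes lower.

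Among genes of RNA processing and transport, *ipo4*, an importin, had 220, 418 and 442 CPM in DMSO and 102, 78.0 and 100 CPM in JQ1. *HNRNPL* and *U2AF1*, a splicing regulator and a 3′ splice site factor, had rule values of −1.28 and −1.08. Of listed splicing factors outside the 150, 20 of 44 were lower and 0 higher at day 3 (median −0.68). Of listed ribosome biogenesis genes, 24 of 46 were lower and 0 higher (median −0.79). Over all genes tested 9.91% were called lower and 15.3% higher. The ribosome biogenesis genes had as low a median at day 1 (−0.84), and the splicing factors had −0.35 there. At day 1 edgeR called 0 genes of both lists, and it called 0 of all genes lower.

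Several members belong to no growth pathway. *CDH2* (ENSDARG00000018693), N-cadherin, had 100, 245 and 259 CPM in DMSO and 28.4, 43.0 and 30.8 CPM in JQ1 at day 3, and 17.9 to 56.5 and 37.4 to 40.6 CPM at day 1, so that only DMSO at day 3 stood out. *BACE2*, an aspartyl protease, had 17.0, 44.0 and 7.22 CPM in DMSO and 1.69, 2.19 and 0.255 CPM in JQ1 at day 3, and was at 4.00 CPM or less in each library of day 1. *SEC22B* (ENSDARG00000030108), a SNARE of the secretory pathway, had 118, 126 and 195 CPM and 76.4, 25.8 and 22.3 CPM.

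*FAM117A* had 441, 590 and 674 CPM in DMSO and 127, 40.6 and 82.7 CPM in JQ1 at day 3, with 107 to 345 and 109 to 231 CPM at day 1. *camkk2*, a kinase that activates AMPK, had 139, 102 and 123 CPM and 39.1, 14.6 and 31.6 CPM at day 3. *GNG2*, a G protein subunit, was lowest in JQ1 replicate 2, with 178, 217 and 148 CPM in DMSO and 96.6, 20.1 and 66.2 CPM in JQ1.

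The identifier ENSDARG00000114226, which has no symbol, had 66.2, 5.17 and 3.79 CPM in DMSO and 1.86, 2.51 and 1.61 CPM in JQ1 at day 3, so that 1 DMSO library made its value of −3.12. *zgc:194101* ranged from 5.84 to 116 CPM in DMSO and from 10.9 to 145 CPM in JQ1 at day 1, and at day 3 it had 27.6 to 143 and 10.8 to 18.1 CPM.

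Zebrafish keep many genes in duplicate, and 26 members had another copy in the table. In the *h2az2* and *bub1b* pairs both copies were members. Outside the 150 were 23 other copies, of which 20 were tested, and these were not chosen by the rule. By edgeR, 3 of the 20 were lower and 2 higher at day 3, 11 had a negative value, and the median log2 fold change was −0.29 (all genes 0.05, 9.91% called lower). The 3 were *tmpoa*, a lamina protein gene (−2.11, adjusted p = 0.0215), the second *MARCKS* copy (ENSDARG00000004049, −1.92, adjusted p = 0.0287) and *sumo3a* (−1.03, adjusted p = 0.0302). *cdr2a* (3.74, adjusted p = 0.0264) and the second *CCSAP* copy (ENSDARG00000025325, 3.62, adjusted p = 0.0319) were higher, both from under 1 CPM in each DMSO library. *hmga1b* had 0.161 to 4.28 CPM in DMSO and 5.25 to 14.1 CPM in JQ1 without a call (1.91, adjusted p = 0.191 from edgeR), while its copy *hmga1a* is a member.

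By symbol, 130 of the genes were placed in the RefSeq annotation of another assembly (GRCz12tu), on 25 chromosomes, and 4 pairs stood within 3 genes of each other (*BACE2* and *ATM*, *ved* and *h2az2b*, *zgc:113162* and *camkk2*, *KPTN* and *HNRNPL*).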

How the data were processed

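RNA from mCherry-sorted tumor cells was sequenced by the authors as strand-specific paired-end reads, aligned to GRCz11 with STAR 2.5.2a, keeping reads with 1 place, and assigned to genes with featureCounts. The deposited table holds whole-number counts, not normalized, for 25607 zebrafish genes, both transgenes, ERCC spike-ins (92) and 42 receptor constructs (0 counts). The authors' DESeq2 1.12.4 tables of fold changes and p-values per day were not used. The paper's text gives 3 days of treatment, and day 1 comes from the labels.

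CPM was the count per 1e6 counts on zebrafish genes. Each comparison, 3 against 3 libraries or all 12 for the change between days, used edgeR 4.0.16 in R 4.3.3 (filterByExpr, TMM, two-sided quasi-likelihood test, Benjamini-Hochberg threshold 0.05). Standard errors came from the F statistic. The fit was run on simulated counts with the same spread in every gene, which checks the code and not the spread between these animals. DESeq2 1.42.0, other scalings, no filter, a replicate block and each library left out were alternatives. Symbols matched 23608 of 25607 identifiers, and *hexim1* and *mycb* were not matched. Copies share a symbol or differ in a final a or b; *cd8b*, *RRM2B* and *CHAF1B* were not taken as copies. No promoter or protein sequences were used here.

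Named genes were the 30 members with the lowest day 3 value, members on a pathway list, members with another copy, those at the limit, the transgenes and the extremes of spread; others were picked after their values were seen. Values of 1 member that the rule names are not reported here. The members and lists were chosen with earlier results of these data known.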

Additional observations from a re-analysis of the deposited data

Results flagged for a closer look

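In 3 of the 150 genes each JQ1 library of day 1 lay above the DMSO mean of that day and each JQ1 library of day 3 below the DMSO mean of its day. At day 1 edgeR gave *CDH2*, *MARCKS* and *gtse1* log2 fold changes of 0.34, 0.28 and 0.20 without a call, so a rise is not shown. It called 0.0443% of all genes there, so a missing call does not show that there was no rise. In none of the 150 genes were all JQ1 libraries of day 1 above all DMSO libraries, against 5.63% of genes with enough counts. The rule kept genes near 0 at day 1, so nothing is read from that count. In edgeR's test over all 12 libraries the change of the JQ1 effect from day 1 to day 3 was −3.18 (log2, standard error 0.61) for *CDH2*, −2.13 (0.57) for *MARCKS* and −1.55 (0.40) for *gtse1*. None passed the correction over all genes (adjusted p = 0.612, 0.711 and 0.711 from edgeR; unadjusted 0.000252, 0.00306 and 0.00229). The rule chose genes near 0 at day 1 and low at day 3, so such cases are favoured by the choice.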

How the results depend on the processing

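The number of members called lower at day 3 (129, against 9.91% of all genes) was 147 with DESeq2, against 14.8% of all genes. It was 148 with ERCC scaling, against 23.5%, and 130 without a filter on low counts, against 5.93%. With scaling by the transgenes it was 0, where edgeR called 0.0307% of all genes lower and 31.7% higher. It was 0 with the replicate block and 0 to 115 with 1 library left out. Without JQ1 replicate 2 it was 57, against 2.23% of all genes. The block and the loss of any 1 DMSO library gave 0, and there no gene of the whole table was called. Each group is given as independent animals, so replicate numbers were not taken as pairs. The correlations of same-numbered libraries ran from −0.26 to 0.13 and those of unlike-numbered ones from −0.24 to 0.28. With so few libraries a group these correlations cannot show whether numbers pair animals. The median log2 fold change of −1.63 became −2.04 with ERCC scaling, 0.64 with transgene scaling and −1.85 to −1.57 with 1 library left out. At day 1 the 0 called became 70 with ERCC scaling, against 37.6% of all genes. For the change between days the 0 called became 7 with DESeq2, against 0.127% of all genes. For DMSO and JQ1 between days it became 7 and 9, against 0.198% and 0.452%.

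The rule found 0 of the 150 again with ERCC scaling and 91 to 134 with 1 library left out (91 without DMSO replicate 1 of day 1). It found 116 with TMM, 129 to 141 with other pseudocounts and 143 with name prefixes matched in lower case only, a setting chosen after seeing the data. Of the 30 lowest genes, 28 were called in the main fit. All 28 lost the call under the block and without any 1 DMSO library, where no gene of the whole table was called. Scaling by the transgenes moved the median of all genes from 0.05 to 2.48, and with that shift 12 of the 30 turned higher, namely *DUT* (0.024), *CKS1B* (0.039), *dhfr* (0.21), *zgc:113162* (0.39), *PCNA* (0.11), *hmgb2b* (0.089), *ipo4* (0.0026), *NCAPH* (0.32), *RRM1* (0.34), *AURKB* (0.18), *spc24* (0.43) and *TOP2A* (0.58). Both transgenes had lower means in JQ1 than in DMSO at day 3, so these values are relative to a scale that itself differed. The comparison of promoter motifs was not run, since no promoter sequences were used here. With 3 animals a group, the spread between animals limits these calls more than depth, and the lowest members lie near the limit of 3 counts only in *BACE2*.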
